A study of Oryza sativa Indica Group with 6 samples.

Results

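MADS-box transcription factors, named for their shared DNA-binding domain, were followed in 10-day rice seedlings. The members were all genes that carry the name MADS with a number, with or without the prefix Os, among the symbols and synonyms of the NCBI rice gene table. The rule gave 31 of the 39387 genes of that table. Of these, 24 had a transcript cluster, the array's unit of measurement, that was paired with them alone. The other 7 had none and are named only, as MADS3, MADS7, MADS13, MADS20, MADS25, MADS50 and MADS58. Each of the 24 measured genes had 1 cluster, and none shared its signals with another cluster. On the array as a whole, 14662 genes had such a cluster among 41770 clusters.

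RNA came from transgenic rice overexpressing Abp57, a gene for an auxin-binding protein, and from wild-type rice as the control. Both were seedlings of the *indica* cultivar MR219, harvested whole with shoot and root, and the transgenic seeds were of the T3 generation after *Agrobacterium* transformation. There were 3 biological replicates of each genotype, each of at least 3 seedlings and each on its own array, called OxAbp57 and control replicates 1 to 3 here. The promoter of the transgene and the number of independent lines behind the 3 replicates are not given in the sources used here, and the signal of Abp57 itself was not analysed here. In whole seedlings, fewer cells of a type and less RNA per cell cannot be told apart.

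The values were log2 signals as the authors deposited them, and the median signal of an array lay between 5.21 and 5.30. The shoot was represented by *RBCS*, the small subunit of Rubisco, at 11.66 to 13.05, and the root by the silicon transporter gene *LSI2* at 6.90 to 7.89. Of 4 shoot and 5 root markers, 4 and 3 were above the array median on all 6 arrays. Among all clusters paired with 1 gene, 61.5% were. *QHB*, a gene of the root quiescent centre, was below the median on all 6. Control replicate 3 stood apart in 7 markers of dividing cells. Their mean level was 4.28 there, against 6.05 and 5.99 in control replicates 1 and 2, and lay between 4.96 and 5.67 in OxAbp57 rice. The genes described by this array are therefore also given without it where a call or the size of a difference turned on it. This array was singled out from these same signals, and its removal widens any difference for which it lay near OxAbp57 rice. P-values without it are thus no independent evidence. By limma 151 clusters passed the adjusted p without it, against 6 with all arrays. By the reported RNA integrity numbers, a measure of intact RNA, replicate 3 was highest in each genotype. The part of RNA integrity was not tested.

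Plant MADS-box proteins bind DNA in pairs and larger complexes. The clades named after the *Arabidopsis* genes AP1, AP3, PI, AG, SEP and AGL6 specify the floral meristem and the floral organs. Proteins of the SOC1 and SVP clades act in the timing of flowering and in hormone responses, those of the AGL17 clade in root growth, nitrate response and tillering, and those of the Bsister clade in the ovule and young seed. Seedlings bear no panicle, and the arrays show which of these genes are nevertheless on.

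A member was called on where its signal was above the median of all clusters on each of the 6 arrays, and at background where it was at or below that median on all 6. The platform table marks no control probes, so the median stands in for a measured background, and the affinity of the probes differs between genes. A brighter cluster is thus not shown to have more RNA. By this rule 5 of the 24 members were on, or 20.8%, against 42.7% of all clusters and 61.5% of the clusters paired with 1 gene. At background were 16 members, or 66.7%, against 43.0% of all clusters and 22.7% of those paired with 1 gene. The remaining 3, *MADS18*, *MADS22* and *MADS30*, were above the median on some arrays only.

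**Figure D1:**
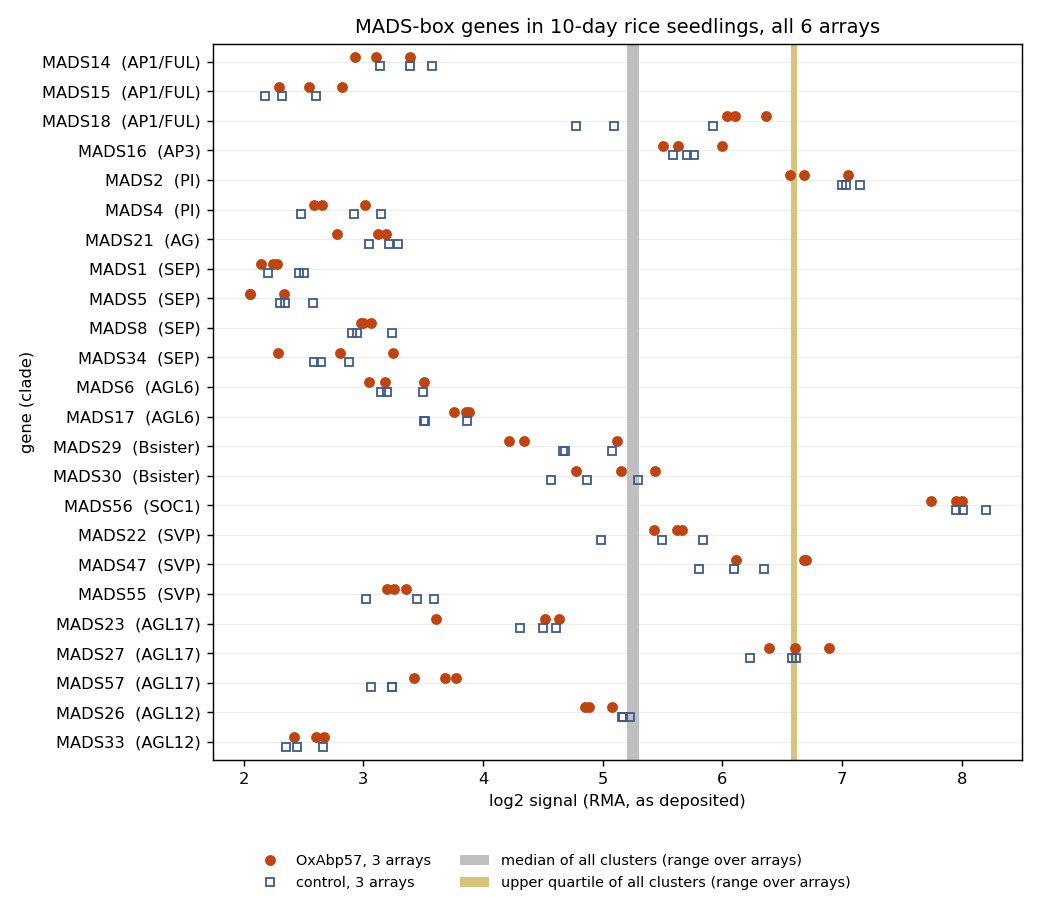
The log2 signal of each of the 24 measured MADS-box genes (rows, grouped by clade) on 3 OxAbp57 arrays (filled circles) and 3 control arrays (open squares), with the range over arrays of the median (grey) and the upper quartile (yellow) of all clusters. *MADS56* lies above both bands on all arrays, *MADS2* and *MADS27* lie around the upper band, and 16 genes stay left of or at the grey band.

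*MADS56* was furthest above background. This SOC1-clade gene delays flowering of rice under long days. Its signal was 7.96, 7.74 and 8.01 in OxAbp57 replicates 1, 2 and 3, against 8.01, 7.95 and 8.20 in control replicates 1, 2 and 3. It was the only member above the upper quartile of all clusters on every array, a quartile that lay between 6.57 and 6.62. The genotypes overlapped, with a log2 fold change (OxAbp57 minus control, here and throughout) of -0.15 (standard error 0.15, 95% interval -0.49 to 0.18, limma). *MADS50*, the flowering activator of the same clade, had no cluster of its own.

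*MADS27*, a gene of nitrate response and root growth, was the only measured AGL17-clade member that was on. It had 6.39, 6.89 and 6.61 in OxAbp57 rice and 6.23, 6.62 and 6.59 in the control, above the upper quartile on 4 of the 6 arrays. The genotypes overlapped, and the log2 fold change was 0.15 (standard error 0.18, 95% interval -0.27 to 0.57). The clade members *MADS23* and *MADS57*, which like *MADS27* are targets of the microRNA miR444 in rice, stayed at background. *MADS25*, of the same clade, had no cluster of its own. *MADS23* ran from 3.61 to 4.64, with the lowest signal in OxAbp57 replicate 1 and 4.31 or more on the other 5 arrays.

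Of the SVP clade, whose rice genes *MADS22*, *MADS47* and *MADS55* restrain brassinosteroid responses, *MADS47* was on. It had 6.68, 6.11 and 6.70 in OxAbp57 rice against 6.34, 5.81 and 6.10 in the control. OxAbp57 replicates 1 and 3 were above all controls, but OxAbp57 replicate 2 lay within them. A log2 fold change of 0.42 was fitted (standard error 0.21, 95% interval -0.08 to 0.91, adjusted p = 0.749 from limma). *MADS22* had 5.62, 5.43 and 5.66 in OxAbp57 rice and 5.50, 4.99 and 5.84 in the control, above the median on 5 arrays and below it in control replicate 2. *MADS55* was at background, at 3.02 to 3.59.

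Among the 13 measured members of the clades of flower identity, 10 were at background, and 2, both of class B, were on. *MADS2*, a PI-clade gene of lodicule development, had 6.57, 6.68 and 7.05 in OxAbp57 rice and 7.15, 7.03 and 7.0 in the control. It exceeded the upper quartile on 5 of 6 arrays. OxAbp57 replicates 1 and 2 lay below all controls and OxAbp57 replicate 3 within them. The log2 fold change was -0.29 (standard error 0.16, 95% interval -0.67 to 0.09). The name MADS2 is also a synonym of the *MADS18* gene in the NCBI table, where the PI-clade gene is LOC4325001, measured by cluster 16404610.

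The AP3-clade gene *MADS16*, also called SPW1, gives stamens and lodicules their identity and was on by a small margin. It had 6.0, 5.63 and 5.51 in OxAbp57 rice and 5.59, 5.77 and 5.71 in the control. These signals could not be set apart from those of a grain storage gene. *GLUA2*, a glutelin gene of the endosperm, had 5.12, 5.48 and 5.62 in OxAbp57 rice and 5.59, 5.81 and 5.70 in the control, and was itself above the median on 5 arrays. The glutelin genes *GLUA1*, *GLUB2* and *GLUB5* stayed between 1.92 and 4.24. Above the highest grain storage gene on all 6 arrays were 3 members, *MADS56*, *MADS2* and *MADS27*, while *MADS47* was above it on 5 and *MADS16* on 3.

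The measured SEP- and AGL6-clade genes, the AG-clade gene *MADS21* and *MADS4* were dim on every array. *MADS3*, *MADS13* and *MADS58* of the AG clade and *MADS7* of the SEP clade had no cluster of their own. The SEP-clade genes *MADS1*, *MADS5*, *MADS8* and *MADS34*, which work together with the other classes in floral organs, lay between 2.05 and 3.25. *MADS1* and *MADS5* were among the dimmest clusters of the array, with means above 1.87% and 1.60% of all clusters. The AGL6-clade genes *MADS6* and *MADS17* lay between 3.05 and 3.88, and *MADS21*, an ovule gene of the AG clade, between 2.78 and 3.29. *MADS4*, the second PI-clade gene of rice, lay between 2.48 and 3.15 on the same arrays on which *MADS2* was on. A further cluster, paired with *MADS7* and *MADS8* together and therefore counted for neither, lay between 2.63 and 3.20.

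The measured genes of the AP1/FUL clade were divided, and *MADS20* of that clade had no cluster of its own. *MADS14* and *MADS15*, which are switched on when florigen reaches the shoot apex, were at background, at 2.93 to 3.57 and 2.18 to 2.82. *MADS14* and *MADS34*, neighbours in the genome, were both at background. *MADS18*, of the same clade, was above the median on 4 arrays, and its values follow.

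*MADS18* promotes flowering when overexpressed in rice and is known to be active in leaves. Its signal was 6.36, 6.11 and 6.04 in OxAbp57 replicates 1, 2 and 3, and 5.09, 4.78 and 5.92 in control replicates 1, 2 and 3. The genotypes did not overlap, but control replicate 3 lay 0.99 above the mean of the other controls and only 0.12 below the lowest OxAbp57 array. The log2 fold change of 0.91 (standard error 0.28, 95% interval 0.27 to 1.55) is a fold of 1.87, below the fold of 2 that the methods require. Its unadjusted p from limma across all clusters was 0.011 and its adjusted p was 0.637. Without control replicate 3 it had a log2 fold change of 1.23 (adjusted p = 0.045 from limma, where 0.362% of all clusters passed an adjusted p under 0.05), and without control replicate 2 it had 0.66. By the ANOVA per cluster that the methods name, the unadjusted p was 0.063, and the adjusted p was 0.788.

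The flowering-time list held 3 measured clock genes, of which *LHY* and *GI* set the arrays apart in a like way and *PRR37* did not. *LHY*, a morning gene of the circadian clock, had 9.76, 9.99 and 10.29 in OxAbp57 replicates 1, 2 and 3, and 8.54, 8.41 and 10.20 in control replicates 1, 2 and 3. *GI*, which peaks later in the day and acts ahead of the florigen genes, ran the other way, with 9.58, 9.06 and 9.15 in OxAbp57 rice and 10.09, 10.09 and 9.22 in the control. For *MADS18*, *LHY* and *GI* alike, control replicate 3 was on the side of the OxAbp57 arrays and apart from control replicates 1 and 2. The log2 fold change was 0.97 (standard error 0.44, adjusted p = 0.729 from limma) for *LHY* and -0.54 (standard error 0.26, adjusted p = 0.742) for *GI*, and neither passed. Without control replicate 3 *LHY* had 1.54 (adjusted p = 0.029 from limma) and passed both thresholds, and *GI* had -0.83 (adjusted p = 0.167). *PRR37*, a clock gene that delays flowering under long days, had 7.83, 7.33 and 7.49 in OxAbp57 rice and 7.80, 7.74 and 7.03 in the control. Here OxAbp57 replicate 1 was close to control replicates 1 and 2, control replicate 3 was below all other arrays, and the difference was 0.03, or -0.22 without that control. The part of the clock genes in the *MADS18* values was not tested. The reported methods give no time of day for the harvest. The dividing-cell markers also set control replicate 3 apart. Their mean level in each OxAbp57 replicate lay between it and the other controls. The median log2 fold change of these 7 markers was -0.24, or -0.85 without control replicate 3. Without that array 1 of the 7 was called lower at the fold and the unadjusted p, against 0.469% of all clusters. At the adjusted p 0 of the 7 passed, against 0.362% of all clusters. All 7 changes were then below 0, from -0.37 for *CDKB2-1* to -1.17 for *CYCB2-2*. All but *CDKB2-1* had an unadjusted p under 0.05 from limma, which 4932 of the 41770 clusters reached. Of 4 shoot markers 0 passed, and their mean level was 10.20, 10.09 and 10.19 in OxAbp57 rice and 9.86, 9.83 and 9.74 in the control. The markers differed, with log2 fold changes of 0.68 for *RCA*, 0.55 for *RBCS*, 0.21 for *CAB1R* and -0.05 for *CAB2R*. Without control replicate 3 these were 0.88, 0.19, 0.29 and -0.11. The part of either marker list was not tested.

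**Figure D2:**
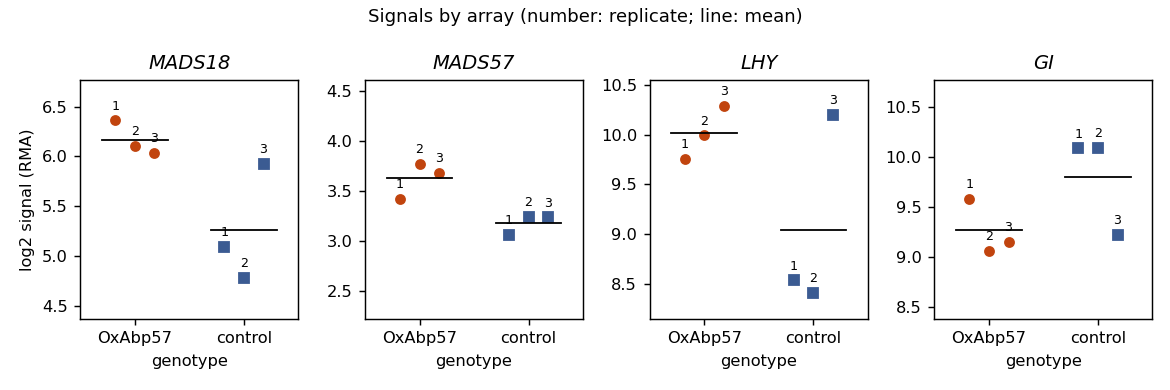
The log2 signals of *MADS18*, *MADS57*, *LHY* and *GI* in OxAbp57 (circles) and control (squares) arrays, with the replicate number above each point, the mean as a line and the same span on each vertical axis. Control replicate 3 sits near the OxAbp57 arrays for *MADS18*, *LHY* and *GI*, and with the other controls for *MADS57*.

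*MADS57*, which in rice represses the strigolactone receptor gene *D14* and so affects tillering, was the second member to reach an unadjusted p under 0.05, at background level. It had 3.42, 3.77 and 3.68 in OxAbp57 rice against 3.06, 3.24 and 3.23 in the control, without overlap. The log2 fold change was 0.45 (standard error 0.15, 95% interval 0.10 to 0.79), a fold of 1.36, with an unadjusted p of 0.017 and an adjusted p of 0.668 from limma. *D14* had 9.38, 9.52 and 9.89 in OxAbp57 rice against 9.80, 9.78 and 10.27 in the control. These overlapped, and limma gave a log2 fold change of -0.36 (standard error 0.20, 95% interval -0.81 to 0.10).

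*MADS26*, an AGL12-clade gene that restrains stress and pathogen responses, was the third member whose genotypes did not overlap. It had 4.85, 4.88 and 5.08 in OxAbp57 rice and 5.16, 5.23 and 5.17 in the control, all at background but just under the median. A log2 fold change of -0.25 was fitted (standard error 0.13, 95% interval -0.56 to 0.06). Its clade partner *MADS33* lay between 2.35 and 2.67. The 2 measured genes of the Bsister clade came close to the median, *MADS29* at 4.22 to 5.12 and *MADS30* at 4.57 to 5.43. *MADS30* was above it in OxAbp57 replicate 3 and control replicate 3.

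None of the 24 measured members passed the thresholds for a difference between genotypes. At fold over 2 and an unadjusted p under 0.05, limma called 0 members higher and 0 lower, against 0.335% and 0.172% of all clusters. At an adjusted p under 0.05 it called 0 members, against 0.0144% of all clusters, and the lowest adjusted p was 0.637. The ANOVA per cluster also called 0 members by either rule, and 2, *MADS57* and *MADS26*, had an unadjusted p under 0.05, against 6.41% of all clusters. An unadjusted p under 0.05 was reached by 2 of 24, *MADS18* and *MADS57*, or 8.33% against 6.88% of all clusters. Signals of the genotypes did not overlap for 3 of 24, or 12.5% against 13.0% of all clusters. These shares were near those of the array as a whole.

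The log2 fold changes ran from -0.29 for *MADS2* to 0.91 for *MADS18*, 11 above and 13 below 0, with a median of -0.02, against -0.03 for all clusters. The size of the change, whatever its sign, had a median of 0.18 for the members and 0.15 for all clusters. For 23 of the 24, all but *MADS18*, the 95% interval from limma lay within a fold of 2 in either direction. These intervals use a variance partly shared among all clusters, and not each gene's own spread between replicates alone. Intervals from a gene's own spread are not given here. For *MADS18* the ANOVA per cluster, which uses that spread, gave an unadjusted p of 0.063. With 3 arrays per genotype the precision is limited.

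**Figure D3:**
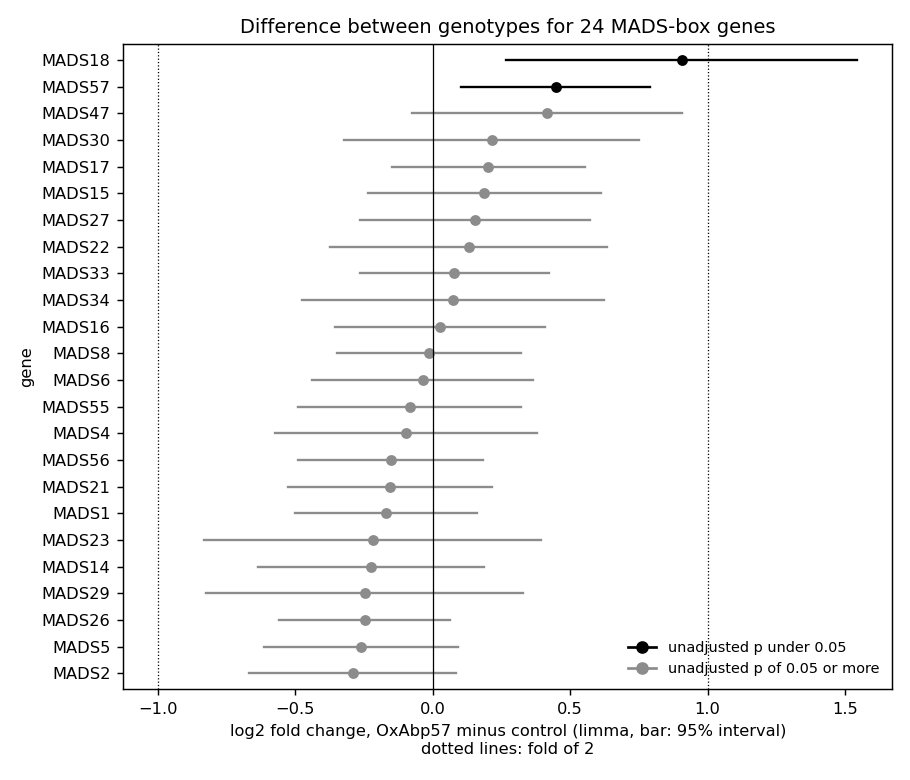
The log2 fold change of OxAbp57 over control for the 24 measured MADS-box genes, sorted, with 95% intervals from limma as bars and a fold of 2 as dotted lines. The intervals of *MADS18* (0.27 to 1.55) and *MADS57* (0.10 to 0.79) lie above 0 and are drawn in black, and the other 22 include 0.

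Replicates of a genotype differed widely for several members. The standard deviation of a member over 3 arrays had a median of 0.22 in OxAbp57 rice, with a range of 0.04 to 0.56, and of 0.19 in the control, with a range of 0.04 to 0.59. For 22 of 24 members the change between genotypes was smaller than the range of the 3 arrays in the more variable genotype. The widest range in OxAbp57 rice was that of *MADS23*, 1.03, followed by *MADS34* with 0.96 and *MADS29* with 0.90. In the control it was that of *MADS18*, 1.14, followed by *MADS22* with 0.85 and *MADS30* with 0.72. Control replicate 3 lay above the mean of control replicates 1 and 2 by 0.99 for *MADS18*, 0.59 for *MADS22* and 0.57 for *MADS30*, and for the other 21 members the difference was at most 0.50. The median deviation of the members from their own means lay between -0.06 and 0.07 on the 6 arrays.

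**Figure D4:**
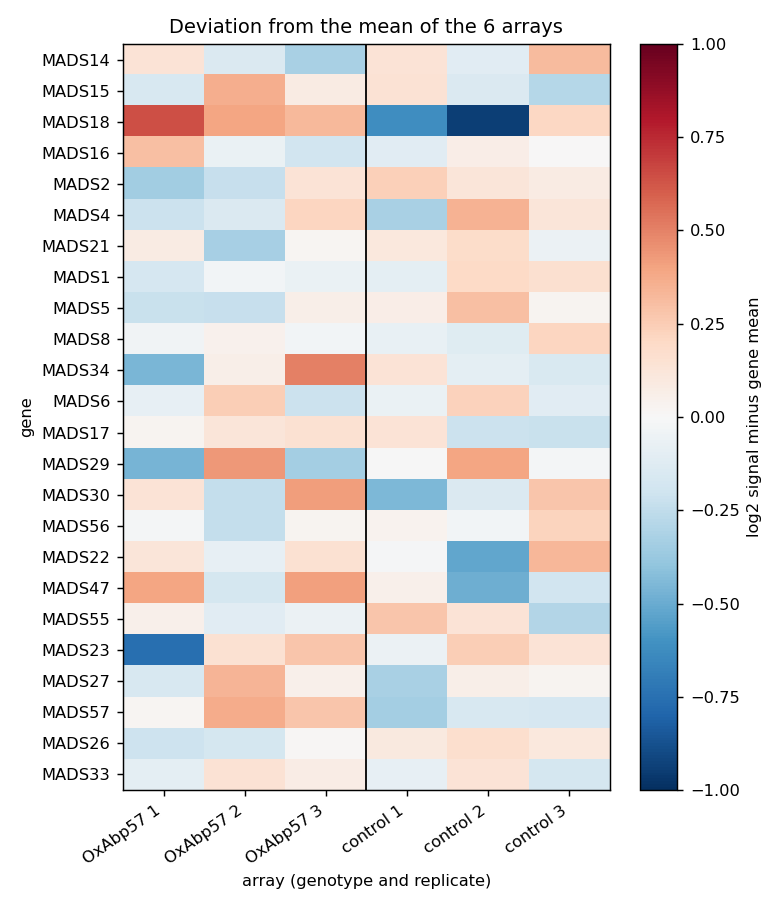
The log2 signal of each MADS-box gene minus its mean over the 6 arrays (colour scale, red above and blue below the mean), for OxAbp57 arrays left of the line and control arrays right of it. *MADS18* is the row with the strongest contrast, with its lowest signals in control replicates 1 and 2, and no column is of a single colour.

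Genes known to act with MADS-box factors likewise did not pass with all 6 arrays. Without control replicate 3, an array singled out from these same signals, *LHY* and *OSH15* did. Of 26 listed genes of flowering time 11 were measured, of which 7 were on and 3 at background. Among all clusters paired with 1 gene, 61.5% were on and 22.7% at background. At the fold and the unadjusted p, 0 of the 11 were called higher or lower (median log2 fold change -0.12). *Hd3a*, a florigen gene that acts ahead of *MADS14* and *MADS15*, was at background with 3.77 to 4.58. So was *Hd1*, its daylength regulator, with 3.98 to 4.62. *PHYA*, a phytochrome gene, had 7.60, 7.61 and 7.59 in OxAbp57 rice against 8.15, 7.99 and 7.89 in the control. The groups did not overlap, and the log2 fold change was -0.41 (standard error 0.14, adjusted p = 0.667 from limma).

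Of 20 listed genes of inflorescence and flower without MADS 6 were measured, and 0 passed in either direction (median -0.23). *DL*, a carpel gene that also forms the midrib of leaves, was above the median on 5 arrays, with 5.0 to 5.92. *OSH15*, a homeobox gene of the shoot meristem and internodes, had 4.50, 4.36 and 4.30 in OxAbp57 rice and 5.64, 5.61 and 4.50 in the control. It is a further gene in which control replicate 3 was close to the OxAbp57 arrays, and its log2 fold change was -0.86 (standard error 0.29, adjusted p = 0.668 from limma). Without control replicate 3 it was -1.23 (adjusted p = 0.028), past both thresholds, where 0.531% of all clusters were called higher and 0.469% lower at the fold and the unadjusted p. Of 19 listed genes of nitrate response and strigolactone 8 were measured, and 5 were on, against 61.5% of the clusters paired with 1 gene. In either direction 0 of these 8 passed (median log2 fold change -0.08, or 0.03 without control replicate 3). Among them *NLP3*, of a family of nitrate-response regulators, had 6.72 to 7.35.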

How the data were processed

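The authors normalized the scanned Affymetrix Rice (Cn) Gene 1.0 ST arrays by RMA in Affymetrix Expression Console (the sources name no versions) and deposited log2 signals of 41770 transcript clusters. These were used as they are, with no filter. OxAbp57 minus control was fitted on all clusters with limma 3.58.1 in R 4.3.3 (lmFit, eBayes, Benjamini-Hochberg over all clusters), and figures were drawn with matplotlib 3.10.9. The fold of 2 and the unadjusted p under 0.05 are the thresholds of the methods. On simulated signals of the 41770 clusters, a log2 change of 1.5 was recovered in 98% of 100 clusters at fold and p and in 74% at the adjusted p. Of the 41570 clusters simulated without a change, 0.361% were called in either direction at fold and p, and 0.0144% at the adjusted p. The simulated noise was independent between arrays, without array-wide differences such as those of control replicate 3. Every member's change was smaller than 1.5 (highest 0.91), and recovery of such smaller changes was not simulated.

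Genes were joined by gene identifier to the platform table, whose annotation pairs 15299 clusters with 1 gene, 436 with several and 26035 with none. The gene table is of a *japonica* assembly and the array of *indica* rice, so no coordinates are given. No sequences of the members were used here. The background was to be the 90th percentile of at least 10 grain storage genes. Only 4 were measured, so the array median, the planned fallback, was used. All measured members are accounted for, with values per array for those that were on or reached an unadjusted p under 0.05. Further values per array, and the genes named from lists, were chosen after they were seen. The members and lists were chosen with earlier results of these data known. List names that belong to another gene in the NCBI table (IDS1, FC1, RCN1, REP1) were left out after their values were seen. Whether replicates were grown on separate plates or days is not stated, so p-values rest on the spread between these samples only. In limma that spread is partly shared among clusters. Alternatives were the methods' ANOVA, an intensity trend, a filter on dim clusters, array weights, repeated quantile normalization, the replicate number as a block, cyclic loess, other background levels and each array left out in turn.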

Additional observations from a re-analysis of the deposited data

How the results depend on the processing

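The number of members on was 5, but 3 above the highest grain storage gene and 1 above the upper quartile of all clusters. It was within 1.5 times of 5 with quantile normalization, without any single array and, as an alternative chosen after seeing the data, above the 90th percentile of the 4 grain storage genes. The number at background was within 1.5 times of 16 in all 11 alternatives. Members higher at fold over 2 and p under 0.05 numbered 0, but 1, *MADS18*, with array weights (log2 fold change 1.03, adjusted p = 0.204 from limma). Leaving out each array gave 0 to 1, with 1 without control replicate 3, where *MADS18* had 1.23. At the adjusted p the count was likewise 0 to 1. At the unadjusted p the count was 2, but 1 without the dimmest clusters, which leaves out *MADS57*, and 1 to 3 without any single array. *MADS57* did not reach the unadjusted p without OxAbp57 replicate 2 or 3 or control replicate 1, and *MADS18* did not by the methods' ANOVA. Gained at the unadjusted p were *MADS26* by that ANOVA (-0.25), *MADS2* without OxAbp57 replicate 3 (-0.43), and *MADS47* (0.61) and *MADS29* (-0.53) without OxAbp57 replicate 2, none at the adjusted p. Without OxAbp57 replicate 2 the uncalled changes of *MADS27* and *MADS56* were 0.02 and -0.07. Over each array left out they ranged between 0.02 and 0.27 for *MADS27* and between -0.21 and -0.07 for *MADS56*. For the listed genes, alternatives were chosen after seeing the data. At the fold and the unadjusted p, *LHY* and *OSH15* were called with array weights (1.34 and -1.10) and without control replicate 3, as was the dividing-cell gene *CYCB2-2* without that array (-1.17). The median log2 fold change of the members was 0.033 with cyclic loess. *MADS16*, which was not called, changed sign with array weights (-0.020) and, over each array left out, ranged between -0.12 and 0.13, below 0 without OxAbp57 replicate 1 or control replicate 1. With a replicate block *MADS47* reached an unadjusted p under 0.05, at a log2 fold change of 0.42 (adjusted p = 0.560 from limma), and no other call changed. Whether the replicate numbers pair the arrays was not settled. The deviations of same-numbered arrays from their genotype means correlated with 0.35, -0.11 and 0.21, and those of differently numbered arrays with -0.37 to 0.26. Deviations from a mean of 3 arrays depend on each other, so these correlations cannot decide it. Each member has 1 cluster, so the mean over clusters of a gene cannot differ. The signals carry no detection p, so for the 16 genes at background a difference in RNA may lie below what the probes resolve.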
